A study of Mus musculus with 26 samples.

Results

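RNA bound to hnRNPK in the cytoplasm of mouse liver was compared between mice on a high-fat diet and wild-type mice on a normal diet. The comparison rests on 4 of the 26 libraries of the study, chosen by their labels: 2 cytoplasmic hnRNPK immunoprecipitation (IP) libraries of high-fat livers and 2 of wild-type livers. The high-fat libraries came from C57BL/6J mice on a high-fat diet and the wild-type libraries from C57BL/6J mice on a normal diet, so both groups share the strain. A pair of cytoplasmic IP libraries from B6.V-Lepob/J mice on a normal diet (ob/ob, obese through a lack of leptin) entered the fit to help estimate the spread between replicates. Age, sex and the length of the diet are not given in the sources used here. Nor do the labels state whether replicates are different animals, and the spread behind each p-value could therefore be technical.

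hnRNPK is an RNA-binding protein with KH domains that prefers stretches rich in cytosine. It shuttles between nucleus and cytoplasm, and it is known to take part in transcription, splicing, mRNA stability and translation. In an RNA immunoprecipitation, an antibody on beads pulls the protein out of an extract, and the RNA that comes with it is sequenced. Each value is therefore a share of the RNA recovered from the beads and not an amount per cell, and reads say nothing of where on a transcript the protein sat. In whole liver, fewer cells of a type and less RNA per cell cannot be told apart.

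Liver extracts were cleared over beads with control IgG before the hnRNPK precipitation, per the labels' protocols. Totals of estimated counts were 8834063 and 9567302 in the high-fat cytoplasmic IP and 10023591 and 9440390 in the wild-type cytoplasmic IP. The ob/ob IP libraries held 12068891 and 11108234, and a cytoplasmic IgG control from mixed mice held 338469. The matching total RNA libraries were deeper, with 25597307 to 41731910 counts, and each total RNA sample below is the sum of 2 libraries that carry 1 replicate number. Levels are depth-scaled counts (CPM) after TMM scaling, which adjusts for composition. They can be compared between samples for a cluster, not between clusters of different length. The unit of measurement is the gene cluster, the set of transcripts that the deposited tables group under 1 number. The tables pair no cluster with a gene symbol or a position, so each cluster goes by its leading isoform, the most counted over all 26 libraries, by identifier or length. The hnRNPK transcript and the defining markers of liver cell types could not be read for the same reason, so the tissue label was not checked against them.

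Few clusters in the cytoplasmic IP passed the adjusted threshold between high-fat and wild-type livers, while in 4148 (34.9%) the gap between group means was larger than both replicate gaps. Of 31469 clusters, 11901 passed the filter on low counts. In edgeR's quasi-likelihood test with Benjamini-Hochberg adjustment, 7 had an adjusted p under 0.05 (0.0588%), of which 5 were higher in high-fat livers (0.042%) and 2 were lower (0.0168%). An unadjusted p under 0.05 was reached by 1939 clusters (16.3%), 1019 higher (8.56%) and 920 lower (7.73%). Both high-fat libraries lay above both wild-type libraries in 2792 clusters (23.5%) and below both in 2857 (24%), so the groups were apart in 5649 (47.5%). For 2 against 2 libraries without a group difference, a share of 0.333 would be apart on average. Clusters share the effects of their libraries, so the share in a single data set can lie well away from that. Standard errors (SE) of log2 fold changes were derived as the absolute change over the square root of the test's F statistic. They can be far off where F is close to 0. Their median was 0.27.

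The count of calls depended on single wild-type libraries. Leaving out wild-type replicate 1 gave 546 calls, 191 higher and 355 lower, and leaving out wild-type replicate 2 gave 37, and both sets held all 7. Leaving out high-fat replicate 2 gave 4. Scaling by library size alone gave 199 calls, with 56 higher and 143 lower, so the share of higher calls depended on the scaling. The high-fat libraries resembled each other more (Pearson's r across clusters 0.977, a median absolute log2 gap of 0.22) than the wild-type libraries did (0.954 and 0.34). Wild-type replicate 1 had a higher r with both high-fat libraries (0.963 and 0.961) than with wild-type replicate 2, while by the median gap it was about as far from the high-fat libraries (0.35 each).

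**Figure D1:**
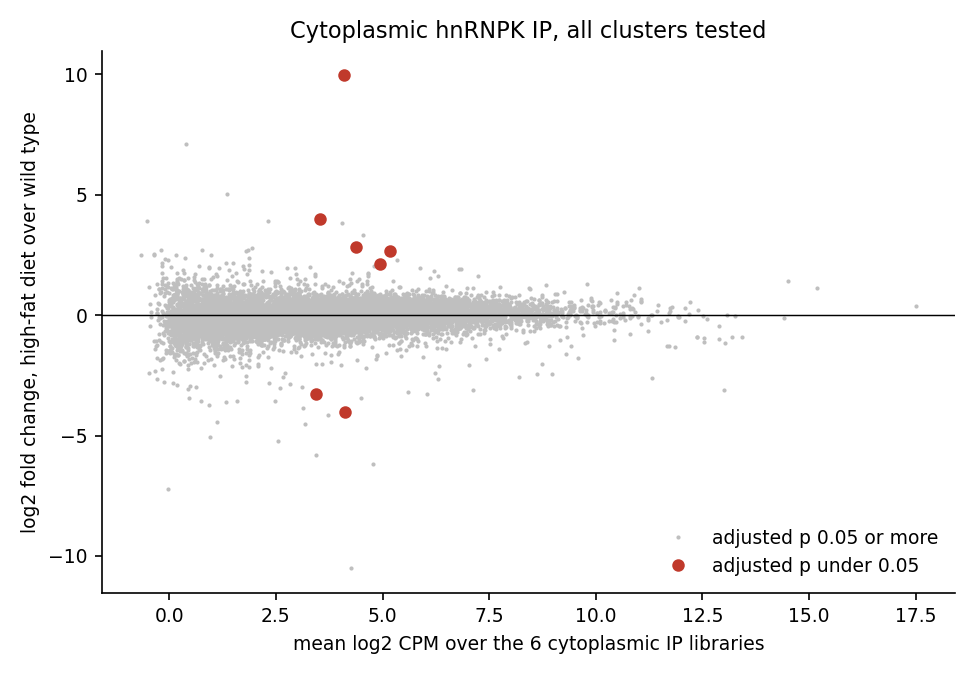
Log2 fold change of high-fat over wild-type cytoplasmic IP (vertical axis) against mean log2 CPM over the 6 cytoplasmic IP libraries (horizontal axis) for the 11901 clusters tested, called ones in red and the rest in grey. The 7 called clusters, 5 higher and 2 lower, lie away from the bulk, whose median is -0.03. Some uncalled clusters have fold changes as large. The position of uc007noh.1 depends on the prior count because it had no wild-type counts.

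The called clusters lay many-fold apart between the groups. The cluster uc011zcf.1, with 9 isoforms and a leading isoform of 6665 nt, had 32.8 and 26.4 CPM in the high-fat IP, 2.39 and 4.74 CPM in the ob/ob IP, and 1.82 and 1.86 CPM in the wild-type IP. Both high-fat libraries were far above the other 4. The log2 fold change over wild type was 4.00 ± 0.35 (SE, n = 2 each), or 16-fold, with an edgeR adjusted p of 0.0053. The leading isoform took 99.4% and 99% of the cluster's counts in high-fat libraries. In wild-type libraries it took 77.8% and 100%, of only 18 and 17 counts.

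The cluster uc007ytz.1, a single isoform of 3285 nt, had 43 and 52.7 CPM in the high-fat IP, 6.94 and 8.77 CPM in the ob/ob IP, and 5.65 and 7.65 CPM in the wild-type IP. The high-fat libraries again stood apart, 7.19-fold over wild type (log2 2.85 ± 0.24, edgeR adjusted p = 0.0043). In both these clusters the high-fat libraries lay above the ob/ob as well as the wild-type libraries. Both kept an adjusted p under 0.05 without any single high-fat or wild-type library, the highest values being 0.034 for uc011zcf.1 and 0.048 for uc007ytz.1.

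A further called cluster of 5755 nt, with 2 isoforms, was high in both the high-fat and the ob/ob groups. It had 54.9 and 52.8 CPM in the high-fat IP and 46.6 and 45.2 CPM in the ob/ob IP, against 7.87 and 9.18 CPM in the wild-type IP. The high-fat level was 6.32-fold that of wild type (log2 2.66 ± 0.18, edgeR adjusted p = 0.002). Within these IP libraries its other isoform, of 4562 nt, took 87.8% to 91.2% of the counts. A short single-isoform cluster of 367 nt had 45 and 68.7 CPM in the high-fat IP, 24.8 and 19.6 CPM in the ob/ob IP, and 14.1 and 11.9 CPM in the wild-type IP. It was 4.35-fold higher than in wild type (log2 2.12 ± 0.25, edgeR adjusted p = 0.035). Without high-fat replicate 2 its adjusted p was 0.17, the highest among its alternatives, whose lowest was 8.6e-18.

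Both called clusters that were lower were nearly empty in ob/ob as well. The cluster uc008ues.1, a single isoform of 2395 nt, had 4.08 and 1.71 CPM in the high-fat IP and 0.434 and 0.614 CPM in the ob/ob IP, against 33.6 and 63.3 CPM in the wild-type IP. It was 16.2-fold lower in high-fat than in wild-type livers (log2 -4.02 ± 0.42, edgeR adjusted p = 0.018). The cluster uc009eot.2, of 3967 nt and 2 isoforms, had 1.84 and 4.34 CPM in the high-fat IP and 0 and 0.175 CPM in the ob/ob IP, against 27.7 and 31.2 CPM in the wild-type IP. It was 9.75-fold lower (log2 -3.29 ± 0.41, edgeR adjusted p = 0.046). Without high-fat replicate 1 its adjusted p was 0.24 and without high-fat replicate 2 it was 0.09, and over all its alternatives it ran from 2.4e-24 to 0.24. For uc008ues.1 it was 0.11 without high-fat replicate 2, in a range of 1.7e-42 to 0.11.

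Around uc008ues.1 the clusters with nearby numbers had the same direction. All 6 tested clusters within 5 cluster numbers of it were lower in the high-fat IP at an unadjusted p under 0.05, with log2 fold changes of -1.57 to -4.13 and edgeR adjusted p of 0.12 to 0.27, so none of the 6 passed the threshold. Over all tested clusters, 7.73% were lower at that unadjusted p. Their log2 fold changes in total RNA ran from -0.05 to -2.82. The same window held 0 of 5 clusters lower at that p around uc007ytz.1, 1 of 5 around uc011zcf.1 and 1 of 3 around uc009eot.2. RSEM divides reads among transcripts of similar sequence, and whether these clusters share reads was not tested.

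**Figure D2:**
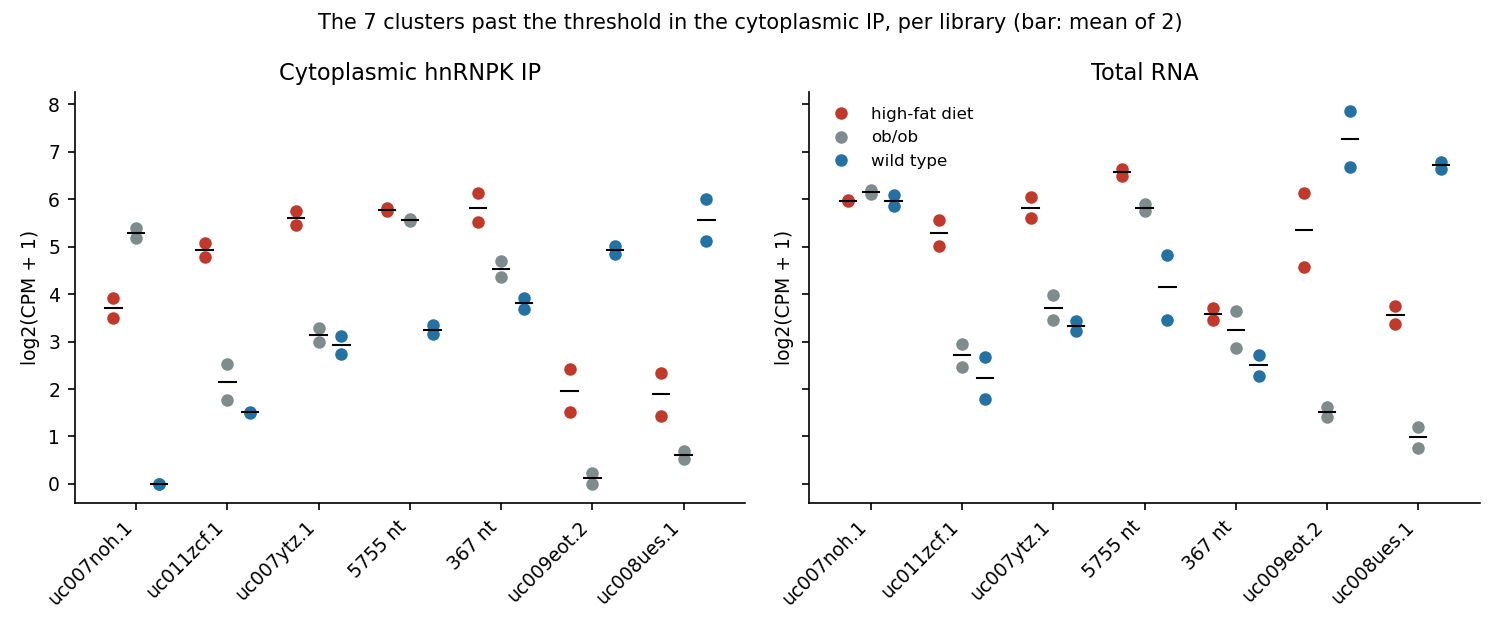
Levels of the 7 called clusters in each cytoplasmic IP library (left panel) and each total RNA sample (right panel). The vertical axis is log2(CPM + 1). For each cluster, high-fat is on the left, ob/ob in the middle and wild type on the right. In the IP panel the high-fat and wild-type points do not overlap for any cluster. There ob/ob sits with wild type for uc007ytz.1 but nearer high-fat for the 5755 nt cluster. In the total RNA panel the high-fat and wild-type points of uc007noh.1 overlap.

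The same diet contrast in total RNA gave no called cluster. Of 15487 clusters tested, 0 had an edgeR adjusted p under 0.05 (0%), 1527 had an unadjusted p under 0.05 (9.86%; 5.11% higher and 4.75% lower), and DESeq2 called 320. Leaving out wild-type total RNA replicate 1 gave 1175 edgeR calls. Against that background, 6 of the 7 clusters called in the IP had the same direction in total RNA. All 6 had an unadjusted p under 0.05 there, with high-fat and wild-type samples apart. Samples were apart in 41.1% of all clusters tested there (22.2% above and 18.9% below). In none of the 6 was the log2 change larger in total RNA than in the IP. These clusters were picked by their IP change, which favours large IP values. A smaller total RNA change is therefore no sign of a stronger change in the IP.

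For uc011zcf.1, total RNA held 31.2 and 46.4 CPM in high-fat livers, 4.5 and 6.77 CPM in ob/ob livers, and 5.4 and 2.46 CPM in wild-type livers (log2 3.30 ± 0.43, edgeR adjusted p = 0.20). For uc007ytz.1 it held 47.3 and 65.2 CPM in high-fat, 9.95 and 14.7 CPM in ob/ob, and 9.79 and 8.31 CPM in wild-type livers (log2 2.64 ± 0.25, edgeR adjusted p = 0.15). The order of the groups was that of the IP. For uc008ues.1, total RNA had 12.4 and 9.37 CPM in high-fat and 0.683 and 1.31 CPM in ob/ob livers, against 99 and 109 CPM in wild-type livers (log2 -3.26 ± 0.26, edgeR adjusted p = 0.14). For uc009eot.2 it had 22.9 and 68.9 CPM in high-fat and 1.64 and 2.06 CPM in ob/ob livers, against 102 and 232 CPM in wild-type livers (log2 -1.86 ± 0.59, edgeR adjusted p = 0.44). The difference between the IP change and the total RNA change was tested across all 18 samples, and for these 4 clusters it lay between -1.38 and 0.74 on the log2 scale, with edgeR adjusted p of 0.62 to 0.87. The 367 nt cluster had 10 and 12.1 CPM in high-fat total RNA, 11.5 and 6.24 CPM in ob/ob, and 5.57 and 3.86 CPM in wild type, a log2 fold change of 1.23 ± 0.33.

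The exception was uc007noh.1, a single isoform of 3286 nt, which had estimated counts in the high-fat cytoplasmic IP and none in wild type. It was singled out after its values were seen, because its mean level over the 4 libraries was below the minimum set for naming. It had 10.3 and 14.1 CPM in the high-fat IP, from 101 and 107 counts, and 35.3 and 41 CPM in the ob/ob IP, against 0 and 0 CPM in the wild-type IP. The high-fat level was at least 75.9-fold higher than in wild type, taking 3 counts over the wild-type group as the floor (edgeR adjusted p = 0.0026). In total RNA the groups overlapped, with 61.1 and 62.4 CPM in high-fat, 67.9 and 72.5 CPM in ob/ob, and 66.6 and 57.1 CPM in wild-type livers (log2 0.00 ± 0.10). All nuclear IP libraries and both IgG libraries held 0 estimated counts of it, against 4229 to 5584 in the total RNA samples. RSEM divides reads among transcripts of similar sequence, and whether uc007noh.1 shares reads with other clusters was not tested. Of 13516 clusters, it was the only 1 whose IP change differed from its total RNA change at an edgeR adjusted p under 0.05 (0.0074%, adjusted p = 0.00013). DESeq2 called 233, and 1336 had an unadjusted p under 0.05 (9.88%; 6.09% higher and 3.8% lower).

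The direction in the IP was then set beside that in total RNA for all clusters. The same sign was seen in 6528 of 11829 clusters tested in both (55.2%). IP and total RNA samples with the same number had correlated replicate differences across clusters, at 0.191 in high-fat, 0.378 in ob/ob and 0.444 in wild type. Between mouse groups of a fraction these correlations ran from -0.255 to 0.174, so the high-fat value was little above that range. Cytoplasmic and nuclear IP correlated at -0.113 in high-fat, 0.416 in ob/ob and 0.518 in wild type. Taking 1 high-fat and 1 wild-type library at a time, an alternative chosen after seeing the data, the sign matched in 55.9% and 59.2% of clusters when IP and total RNA had the same number, and in 49.1% and 51.7% when the numbers differed. Among clusters at an unadjusted p under 0.05 in the IP it was 1235 of 1930 (64%, exact 95% binomial interval 61.8% to 66.1%, counting error only). That interval treats clusters as independent, which they are not, as all rest on the same libraries. Its width says nothing of the spread between libraries. Pair by pair, the match among these clusters was 63% and 62.3% with the same number and 62.2% and 63.1% with different numbers. They were picked by a p from both IP replicates together, which favours the same IP sign in both. This split therefore cannot show whether a shared number matters for them. Of the 1930, 540 of 1016 higher clusters (53.1%) and 695 of 914 lower clusters (76%) had the same sign in total RNA. With library size scaling the shares were 87.3% of higher and 68.1% of lower clusters, so which direction matched more often depended on the scaling. That scaling also moved the median log2 fold change of all clusters in total RNA to 0.13, against 0.01 with TMM. Among those also at least 2-fold apart, 153 of 169 higher (90.5%) and 249 of 283 lower (88%) had the same sign. Of the 1930, 371 also had an unadjusted p under 0.05 in total RNA in the same direction, and 25 in the opposite direction.

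**Figure D3:**
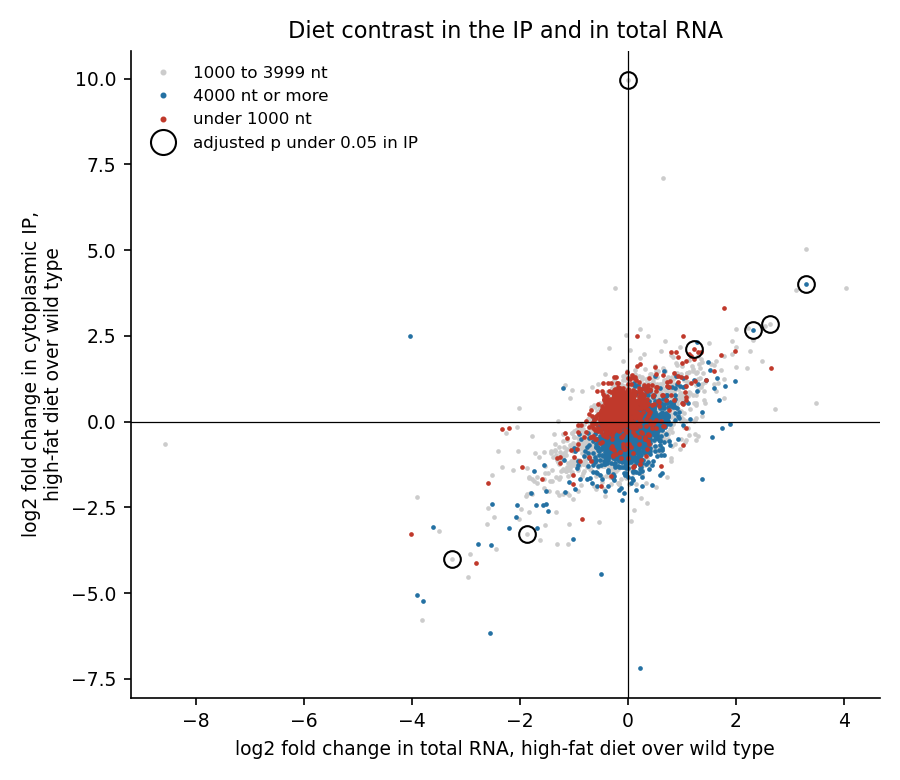
Log2 fold change of high-fat over wild type in the cytoplasmic IP against that in total RNA, 1 point per cluster tested in both, coloured by length of the leading isoform (red under 1000 nt, blue 4000 nt or more, grey between), with called clusters circled. Of the 7 called clusters, 6 lie on the same side of 0 on both axes, and uc007noh.1 lies at 0.00 in total RNA.

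The contrast inside the IP followed transcript length. The median log2 fold change of high-fat over wild type was 0.25 for 174 clusters with a leading isoform under 500 nt, 0.35 for 885 clusters of 500 to under 1000 nt and 0.18 for 2904 clusters of 1000 to under 2000 nt. It was -0.05 for 4799 clusters of 2000 to under 4000 nt, -0.25 for 2737 clusters of 4000 to under 8000 nt and -0.41 for 402 clusters of 8000 nt or more. Short clusters thus lay mostly higher, and long ones mostly lower, in the high-fat IP than in the wild-type IP. Among clusters of 500 to under 1000 nt, 28.4% were higher and 1.81% lower at an unadjusted p under 0.05, beside 8.56% and 7.73% over all clusters. Among clusters of 8000 nt or more, 0.498% were higher and 26.9% lower. No class has a test of its own here.

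The class medians kept their sign in the pairings of a high-fat with a wild-type library at 500 to under 1000 nt and at 8000 nt or more, but not under 500 nt. Over the 4 pairings, the median ran from 0.28 to 0.45 at 500 to under 1000 nt and from -0.51 to -0.26 at 8000 nt or more, while under 500 nt it ran from -0.01 to 0.57. In 4 equal bins of the ob/ob IP level, the median at 500 to under 1000 nt was 0.25, 0.36, 0.39 and 0.34 going up in level, and at 8000 nt or more it was -0.40, -0.48, -0.40 and -0.29. The median under 500 nt was -0.05 in the lowest bin. In the cytoplasmic IP another isoform led in 28.6% of clusters, and 8.85% fell in another length class by it. With those lengths, an alternative chosen after seeing the data, the class medians were 0.25, 0.33, 0.15, -0.07, -0.25 and -0.41 going up in length. Across clusters, which are not independent replicates, Spearman's rho of the fold change with length was -0.431 in the IP and 0.153 in total RNA.

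**Figure D4:**
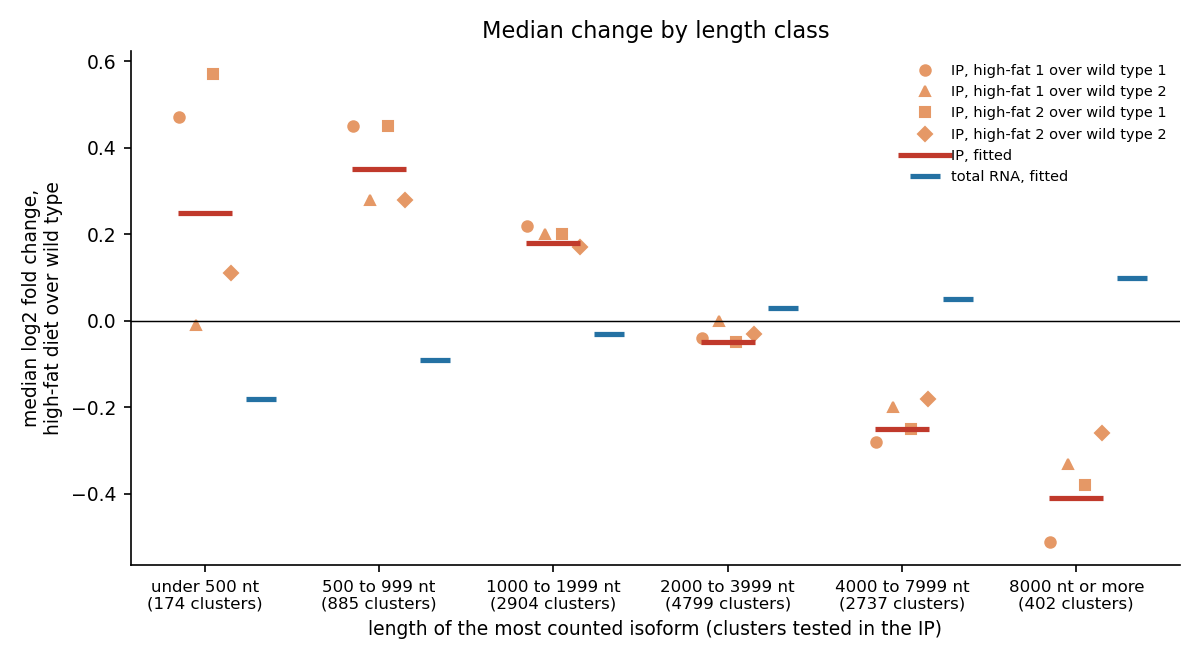
Median log2 fold change of high-fat over wild type by length of the leading isoform (horizontal axis, nt), with red bars for the cytoplasmic IP, blue bars for total RNA (over the clusters tested there), and orange points for the 4 pairings of a high-fat with a wild-type IP library. The IP medians run from 0.35 at 500 to under 1000 nt to -0.41 at 8000 nt or more, and those of total RNA from -0.18 under 500 nt to 0.10 at 8000 nt or more.

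Total RNA ran the other way, with smaller medians. They were -0.18, -0.09, -0.03, 0.03, 0.05 and 0.10 going up in length, opposite in sign to the IP in every class. In the nuclear IP they were 0.23, 0.15, 0.08, -0.01, -0.08 and -0.11, the same sign as in the cytoplasmic IP and smaller in each class. The median of the difference between IP and total RNA changes was 0.49 at 500 to under 1000 nt and -0.45 at 8000 nt or more. Length also went with whether the directions matched. Among higher clusters at an unadjusted p under 0.05, the same sign in total RNA was seen in 83 of 248 (33.5%) at 500 to under 1000 nt, 252 of 480 (52.5%) at 1000 to under 2000 nt and 34 of 36 (94.4%) at 4000 to under 8000 nt. Among lower clusters it was 93 of 105 (88.6%) at 1000 to under 2000 nt and 58 of 108 (53.7%) at 8000 nt or more. Over all clusters of a class tested in both, the total RNA median was -0.12 at 500 to under 1000 nt and -0.04 at 1000 to under 2000 nt. It was 0.03 at 4000 to under 8000 nt and 0.07 at 8000 nt or more. A shift of a whole class alone changes these shares, and the share of each sign over all its clusters was not counted. An alternative chosen after seeing the data took the length trend out of each cytoplasmic IP library and left total RNA as it was. With it, 1075 of 1353 clusters (79.5%) had the same sign, 73.6% of higher and 84.9% of lower clusters.

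Library by library, the length trend of the cytoplasmic IP was lower in wild type than in both the high-fat and the ob/ob groups. It was read as the median deviation from the mean of the 6 IP libraries for 1059 clusters under 1000 nt minus that for 3139 clusters of 4000 nt or more. On the log2 scale it was 0.21 and 0.18 in the high-fat IP, 0.14 and 0.27 in the ob/ob IP, and -0.57 and -0.28 in the wild-type IP. Every wild-type library was below every high-fat and ob/ob library, and the wild-type libraries were farther from each other than the high-fat ones. The means were 0.20 ± 0.02 in high-fat and -0.42 ± 0.21 in wild type (SD, n = 2 each), a difference of 0.62. The exact two-sided permutation p was 0.333, the smallest that 2 against 2 libraries allow. In total RNA the values were -0.18 and -0.10 in high-fat, 0.24 and 0.03 in ob/ob, and -0.05 and 0.11 in wild type. In the nuclear IP they were 0.06 and 0.08 in high-fat, 0.29 and -0.04 in ob/ob, and -0.05 and -0.37 in wild type, where 1 wild-type library lay next to an ob/ob one. The share of all cytoplasmic IP counts in clusters under 1000 nt overlapped between the groups, at 21.2% and 20.9% in high-fat, 17.7% and 19.5% in ob/ob, and 15.9% and 22.4% in wild type.

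**Figure D5:**
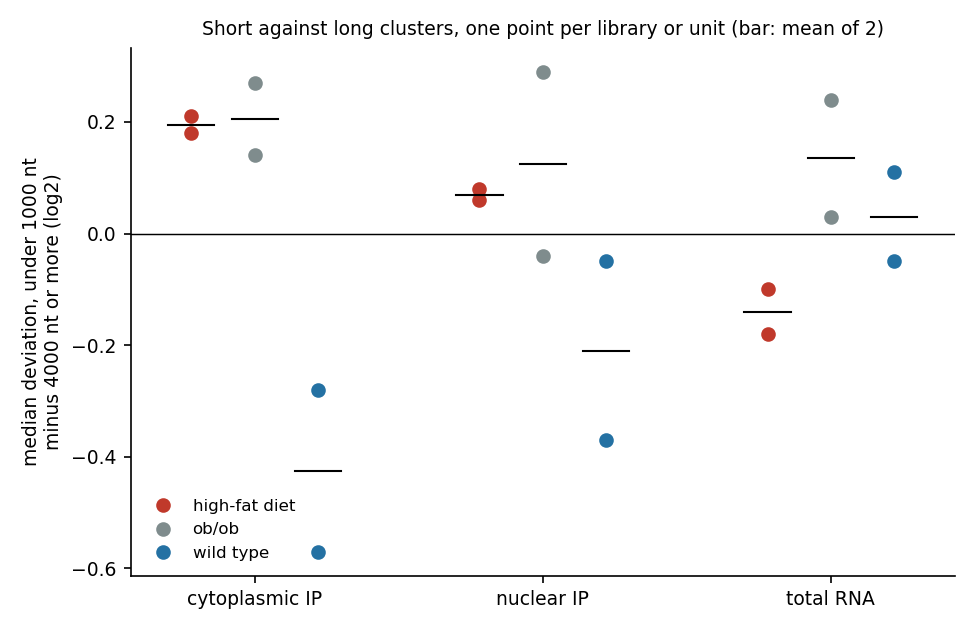
Length trend of each library (vertical axis, median log2 deviation of clusters under 1000 nt minus that of clusters of 4000 nt or more), by fraction, with high-fat on the left, ob/ob in the middle and wild type on the right. In the cytoplasmic IP the wild-type points lie at -0.57 and -0.28 and the high-fat points at 0.21 and 0.18.

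The gap between length and RSEM's effective length, plus 1, a reflection of the read or fragment length assumed in counting, was 64.4 and 61.1 nt in the high-fat IP, 63.1 and 65.7 nt in the ob/ob IP, and 68.8 and 64.0 nt in the wild-type IP. The groups overlapped in it.

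Other properties of the clusters went with smaller differences between high-fat and wild-type IP. The ob/ob libraries do not enter the high-fat and wild-type means. For 2820 clusters at least 2-fold higher in the ob/ob IP than in ob/ob total RNA, the median log2 fold change of high-fat over wild type was 0.11, and for 2756 clusters at least 2-fold lower it was -0.24, beside -0.03 over all clusters. Within a length class the order of these groups was not kept throughout: at 500 to under 1000 nt the medians were 0.33 for 518 clusters higher in the ob/ob IP and 0.42 for 41 lower ones, and at 2000 to under 4000 nt they were 0.00 for 883 and -0.19 for 1145. By isoform number it was 0.04 for 3990 clusters with 1 isoform, -0.05 for 6387 with 2 to 4 and -0.14 for 1524 with 5 or more. By ob/ob IP level it was -0.14, -0.08, -0.02 and 0.08 going up through the same 4 bins.

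Beside uc007noh.1, 4 clusters are given here for a difference from total RNA, the 2 with the lowest p in each direction among those with a log2 difference of at least 1 and IP groups apart. None of them passed the threshold. The cluster uc009mkk.1, of 533 nt, had 166 and 183 CPM in the high-fat IP, 115 and 128 CPM in the ob/ob IP, and 81.9 and 76.4 CPM in the wild-type IP. In total RNA it had 34 and 33 CPM in high-fat, 41.6 and 35.2 CPM in ob/ob, and 38.3 and 44.8 CPM in wild type, so the groups were apart in both with opposite signs. The difference of the changes was 1.49 ± 0.24 on the log2 scale (edgeR adjusted p = 0.13), and its alternatives ran from 1.6e-06 to 0.87. An 877 nt cluster had 81.2 and 68.6 CPM in the high-fat IP and 42.1 and 43 CPM in the wild-type IP, and in total RNA 45 and 42.3 CPM in high-fat and 46.9 and 55 CPM in wild type (difference 1.08 ± 0.20, edgeR adjusted p = 0.28).

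In the other direction, uc012bkt.1, of 2971 nt and with a second isoform of 2967 nt, had 50.3 and 53.2 CPM in the high-fat IP, 62.6 and 80.8 CPM in the ob/ob IP, and 98.9 and 116 CPM in the wild-type IP. Its total RNA levels overlapped, at 406 and 441 CPM in high-fat, 357 and 474 CPM in ob/ob, and 430 and 395 CPM in wild type (difference -1.05 ± 0.24, edgeR adjusted p = 0.28). The cluster uc007wja.2 had 18 isoforms, of which one of 14829 nt took 90% to 100% of its counts in the 4 IP libraries. It had 14.7 and 13.7 CPM in the high-fat IP, 19 and 15.8 CPM in the ob/ob IP, and 25.3 and 31.6 CPM in the wild-type IP. Total RNA had 73.5 and 59.7 CPM in high-fat, 55.4 and 54 CPM in ob/ob, and 63.2 and 52.4 CPM in wild type (difference -1.17 ± 0.27, edgeR adjusted p = 0.30).

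The nuclear IP called 74 of 11531 clusters for the same contrast (0.642%), 50 higher (0.434%) and 24 lower (0.208%). At an unadjusted p under 0.05, 9.44% were higher and 8.93% lower, and the groups were apart in 51.4% (25.6% above, 25.8% below). Of the 7 clusters called in the cytoplasmic IP, 6 were among these 74, all with the same direction. For uc007ytz.1 the nuclear IP had 88.6 and 76.2 CPM in high-fat, 10.9 and 19.3 CPM in ob/ob, and 10.6 and 10.3 CPM in wild-type livers (log2 2.98, edgeR adjusted p = 0.0013). With library size scaling the nuclear median moved to -0.46 and the calls to 62 higher and 821 lower.

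The IgG control was put on the same CPM scale by TMM, which sets the typical cluster level between libraries. The shares above IgG below therefore depend largely on the scaling and do not measure enrichment over background. The control is a single shallow library of mixed mice, so it is no baseline for either group. Over all tested clusters, 5395 (45.3%) were above IgG in all 4 libraries, and with library size scaling the share was 28.7%. Of the 7 called clusters 1 was, the 367 nt cluster, with 6.22 CPM in IgG. IgG held 12.4 CPM of uc011zcf.1, from 6 counts, and 31.1 CPM of uc007ytz.1, both below the high-fat and above the wild-type levels. It held 53.9 CPM of the 5755 nt cluster, between its high-fat libraries. It held 18.7 CPM of uc008ues.1 and 14.5 CPM of uc009eot.2, above the high-fat and below the wild-type levels. Both high-fat libraries were above IgG in 52.2% of all tested clusters and both wild-type libraries in 50%.

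The most counted cluster in every cytoplasmic IP library was uc012ath.2, a single isoform of 5818 nt. It took 13.7% and 28.8% of the high-fat, 12.2% and 15.8% of the ob/ob, and 24.3% and 12.5% of the wild-type IP counts, and 17.4% of the IgG counts. In total RNA it took 0.926% and 1.27% in high-fat and 0.998% and 1.51% in wild-type livers. The high-fat and wild-type IP libraries overlapped, and the log2 fold change of 0.37 ± 0.73 did not pass the threshold (edgeR adjusted p = 0.84). Without high-fat replicate 2 the value was -0.59, and without wild-type replicate 2 it was -0.02. The 7 calls were unchanged in number when this cluster was left out.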

How the data were processed

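Per the submitters' processing notes, the authors used TopHat2 2.0.10, Bowtie2 2.1.0 and RSEM 1.2.8, with genome build mm10; order and annotation are not given in the sources used here. The authors estimated the expected counts of 59121 transcripts with RSEM, and deposited them with length and effective length. Expected counts were summed over 31469 clusters and rounded. Total RNA libraries sharing a replicate number were summed, although the labels do not call them runs. Tests used edgeR 4.0.16 (R 4.3.3, limma 3.58.1; quasi-likelihood, TMM, filterByExpr, Benjamini-Hochberg, threshold 0.05) on the 6 libraries of a fraction, or 18 samples for the difference; DESeq2 1.42.0 was an alternative. On counts simulated for the cytoplasmic IP fit, 84 of 200 clusters changed by 1 on the log2 scale were recovered among 11704 tested, with 5 false calls. At a change of 2 it was 185 of 200 among 11721, with 11 false. For the difference fit it was 20 of 200 among 12895 with 0 false, and 175 of 200 among 12910 with 5 false. The simulated spread followed only the trend with level, with none particular to a cluster. Changed clusters all had a mean level above 1 (log2 CPM), so recovery in the real data may be lower. Same-numbered cytoplasmic IP and total RNA samples of a mouse group had correlated replicate differences (0.191 to 0.444). The lowest, in high-fat, was close to the 0.174 between high-fat and wild-type cytoplasmic IP. The difference was also fitted with the number as a block within each mouse group.

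Named clusters passed the threshold, had groups apart and a mean level of at least 1 (log2 CPM), and were the first 2 in each direction by fold; empty places were filled by lowest p at a log2 change of at least 1. Symbol-based gene lists and sequences could not be matched. Members and lists were chosen with earlier results of these data known. Replicate agreement and counting limit the precision.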

Additional observations from a re-analysis of the deposited data

Results flagged for a closer look

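The diet change of uc007noh.1 in the cytoplasmic IP differed from that in total RNA by a test of the difference itself (edgeR adjusted p = 0.00013). The high-fat IP was at least 75.9-fold higher than the wild-type IP, with 101 and 107 counts in high-fat against 0 and 0 in wild type, while total RNA had a log2 fold change of 0.00 ± 0.10. Without wild-type replicate 1 or 2 the bound was 36.4 or 39.5, and without high-fat replicate 1 or 2 it was 89.3 or 65.5. Counts are RSEM estimates, and whether this cluster shares reads with others was not tested.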

How the results depend on the processing

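With 2 libraries per group and a shallow IgG control, calls depended on single libraries and tools; a sample left alone in its group is assumed to vary like the others. The 7 cytoplasmic IP calls became 199 with library size scaling, 709 with no filter, 270 with DESeq2, 19 with the replicate number as a block and 250 over 18 samples, all holding the 7. Leaving out 1 library gave 4 to 546. Fitting the 4 libraries alone gave 6, of which 4 were among the 7; uc008ues.1, uc009eot.2 and the 367 nt cluster did not pass there. Taking out the length trend gave 5, all among the 7. The lowest edgeR adjusted p given for uc008ues.1 (1.7e-42), uc009eot.2 (2.4e-24) and the 367 nt cluster (8.6e-18) came from the fit with no filter. Replicate numbers are not said to pair samples. Within the cytoplasmic IP, replicate differences of high-fat and wild type correlated at 0.174. The replicate block gave 0 calls in total RNA, 140 in the nuclear IP and 1 for the difference. Blocking on the number within each mouse group also gave 1 for the difference.

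Total RNA calls went from 0 to 320 with DESeq2 and 2001 with 12 separate libraries, and 0 to 1175 without 1 library. The 74 nuclear calls became 883 with library size scaling, 850 with no filter, 331 with DESeq2 and 6 to 380 without 1 library. The single difference call became 2 with no filter, 233 with DESeq2 and 1 to 2 without 1 library. The 64% with the same sign became 74.7% with library size scaling and 56.3% to 68.9% without 1 library. It became 79.5% with the length trend taken out of the cytoplasmic IP but not of total RNA. Without 1 library, class medians ran from 0.31 to 0.46 at 500 to under 1000 nt, from -0.45 to -0.30 at 8000 nt or more, and from 0.07 to 0.19 and -0.28 to -0.19 for clusters higher and lower in the ob/ob IP. The log2 change of uc012ath.2 ran from -0.59 to 0.96 without 1 library. The 45.3% above IgG became 28.7% with library size scaling. Alternatives on length, neighbouring clusters and shared numbers were chosen after seeing the data. The cause of these changes was not tested.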
